A study of Drosophila melanogaster with 6 samples.

Results

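The comparison described here set Dnmt2 mutant flies against heterozygous flies in 3 conditions. It used all 6 libraries of the series, 3 of each genotype, chosen by the genotype in their titles and paired by condition. The heterozygotes carried the strain label w1118; +/Dnmt2 mutant;+/+ and the mutants w1118; Dnmt2 mutant/Dnmt2 mutant;+/+, so both shared the w1118 background and at least 1 mutant allele, which the labels do not name further. The series title speaks of wild type, and the sample labels, which say heterozygous, were followed. Control males were untreated and 10 days old, heat shock males were 10 days old and had spent 1 h at 37 °C and then 5 h at room temperature, and recovery males were 12 days old and had been given 2 days after the same heat. Age and recovery therefore cannot be told apart, but each mutant library has a heterozygote library of the same age. Testes were removed, and small RNAs of 25 to 70 nt from the remaining body were sequenced. Each combination of genotype and condition had 1 library, with no statement in the labels on separate cultures. The deposited tables list tRNA sequences only, so Dnmt2 RNA and markers of the labelled tissue were not analysed here.

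A tRNA carries 1 amino acid and reads codons with the 3 bases of its anticodon. Isoacceptors are tRNAs for the same amino acid with different anticodons, named here by both, as in Gly-GCC. Endonucleases can cut a mature tRNA in the anticodon loop, which leaves a 5′ and a 3′ piece. Dnmt2 is a methyltransferase that modifies cytosine 38, just behind the anticodon, and in Drosophila it is known to act on the tRNAs Val-AAC, Asp-GTC and Gly-GCC. The methyl group is known to protect these tRNAs against cleavage, and cleavage of tRNAs is known to increase under stress.

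The files held 199966 reads when each read was counted once, in 3099 distinct sequences. Values of 3 libraries are given in the order control, heat shock, recovery from here on. The heterozygote libraries held 15336, 46056 and 28521 reads, and the mutant libraries 67477, 37463 and 5113. Mutant recovery was therefore the least precise library. Reads were 30 to 51 nt long, and 99.57% to 99.90% of them were placed on rebuilt tRNA genes. Positions follow tRNA numbering, with the anticodon at 34 to 36. These totals are of the tRNA lists and not of whole libraries.

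Fragments on which the comparison turned are shown first, 5′ to 3′, with the anticodon bases they hold in capitals. The 2 Asp-GTC fragments share their start and differ in whether the last anticodon base is included. The 2 long fragments of glycine and glutamine tRNAs run through the anticodon loop uncut, while the Lys-TTT, Cys-GCA and Val-CAC fragments stop before the anticodon or at its first base. The arms are those of the genes at which the files list each sequence.
Asp-GTC, 35 nt, arms 2L, 3L and 3R: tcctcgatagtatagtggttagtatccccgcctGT
Asp-GTC, 36 nt, arms 2L, 3L and 3R: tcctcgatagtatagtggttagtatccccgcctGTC
Gly-TCC, 51 nt, arm 3R: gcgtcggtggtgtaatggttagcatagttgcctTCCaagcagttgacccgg
Gln-CTG, also listed at Gln-TTG genes, 51 nt, arms 2L, 3L, 3R and X: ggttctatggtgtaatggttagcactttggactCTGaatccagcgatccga
Cys-GCA, 33 nt, arm 3L: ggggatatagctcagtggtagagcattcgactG
Cys-GCA, second variant, 33 nt, arm 3L: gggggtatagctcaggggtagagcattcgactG
Val-CAC, 33 nt, arm 3R: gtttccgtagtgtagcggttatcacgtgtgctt
Val-CAC, second variant, 33 nt, arm 3R: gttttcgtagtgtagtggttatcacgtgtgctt
Lys-TTT, 33 nt, arm 3R: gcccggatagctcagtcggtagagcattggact

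Reads summed by amino acid family were compared between the genotypes, as levels relative to the other tRNA reads of each library. Of 17 families with at least 300 reads, 5 had a higher level in the mutant of all 3 pairs (29.4%), namely Gly, Lys, Cys, Gln and His, and 5 had a lower one (29.4%), namely Glu, Asp, Pro, Val and Thr, of which Lys, Cys, Gln, Pro and Asp turned mixed under at least 1 other setting given below. Levels were compared as log2 ratios of mutant over heterozygote after TMM scaling, each with an exact 95% interval that covers counting error only. In an edgeR quasi-likelihood test over the 3 pairs, 7 of 17 families passed an adjusted p of 0.05 (41.2%), 2 higher (11.8%) and 5 lower (29.4%). In whole bodies, fewer cells of a type and fewer fragments per cell cannot be told apart.

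Glycine fragments were the largest family, with 54.3%, 45.9% and 33.2% of the reads of heterozygotes and 59.5%, 57.7% and 54.5% of those of mutants. All 3 mutant libraries lay above all 3 heterozygote libraries, although mutant recovery and heterozygote control were nearly equal. The log2 ratio was 0.45, 0.43 and 1.19, and each interval lay above 0. Across the pairs it was 0.69 ± 0.30 (log2 ± SE, 3 libraries against 3) and did not pass the edgeR test (adjusted p = 0.0717).

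Histidine fragments rose in the mutants. They took 0.313%, 0.367% and 0.421% of heterozygote reads and 0.588%, 0.779% and 0.430% of mutant reads, so the groups did not overlap but touched in recovery. The ratio was 1.22, 1.18 and 0.50, and 1.02 ± 0.28 over the pairs (edgeR adjusted p = 0.0143). In recovery, with 22 mutant reads, its interval ran from -0.215 to 1.18 and included 0. Glutamine fragments also passed, at 0.73 ± 0.27 (edgeR adjusted p = 0.0467), with ratios of 0.77, 1.32 and 0.01, the last of which was negative under total counts. Lysine fragments stood at 1.03, 0.16 and 0.45 and cysteine fragments at 0.03, 0.94 and 0.39, both mixed in sign under RLE size factors or total counts. Neither family passed (edgeR adjusted p = 0.113 and 0.129).

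Valine fragments fell in the mutants. Their share was 0.548%, 0.660% and 0.698% in heterozygotes and 0.230%, 0.286% and 0.254% in mutants, with no overlap. The ratio was -0.92, -1.09 and -0.96, each interval lay below 0, and the value over the pairs was -1.01 ± 0.27 (edgeR adjusted p = 0.0143). With each distinct sequence counted once the ratio was -1.12, -0.87 and -0.39, and mutant recovery had 13 reads. Almost all of these reads came from Val-CAC, with 827 reads, whereas the Dnmt2 target Val-AAC had 20 reads in all.

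Glutamate fragments fell as well. They took 19.8%, 27.3% and 31.2% of heterozygote reads and 8.44%, 15.9% and 15.9% of mutant reads. Each mutant library lay below every heterozygote library. The ratio was -0.91, -0.68 and -0.49, with -0.69 ± 0.26 over the pairs (edgeR adjusted p = 0.0467). Glutamate passed in 1 of 10 other settings with all libraries, that of total counts, against 8 of 10 for valine. Threonine, at -0.97 ± 0.33, and aspartate, at -0.80 ± 0.27, passed with the same adjusted p of 0.0348 in edgeR. For threonine only heterozygote libraries, where it is high, reached the count filter of the test. Of the other settings with all libraries in which they were tested, threonine passed in 3 of 9 and aspartate in 4 of 10. Selenocysteine fell by 0.94 ± 0.37 (edgeR adjusted p = 0.0467), but was at 0.12 in control.

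**Figure D1:**
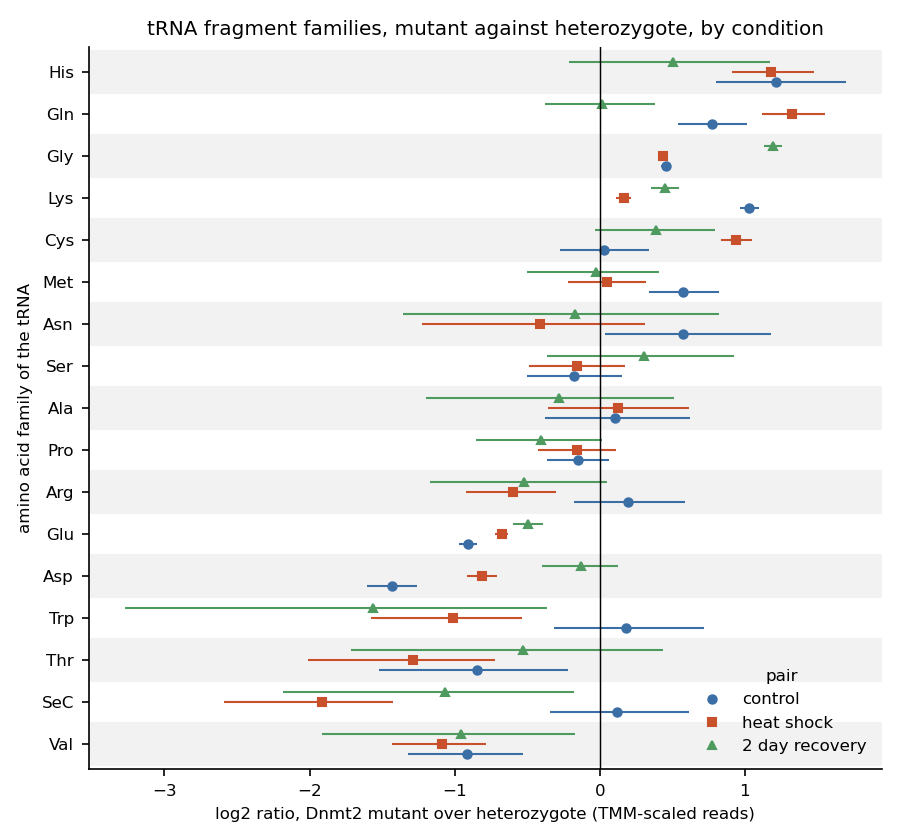
Log2 ratio of TMM-scaled reads, Dnmt2 mutant over heterozygote (x axis), for the 17 amino acid families with at least 300 reads (y axis, ordered by their mean), with 1 point for each pair of libraries and lines for the exact 95% interval of counting error. The intervals of Gly and Lys lie above 0 and those of Glu and Val below 0 in all 3 pairs, that of Lys not under RLE or total counts.

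The direction of some families depended on the scaling, which moves all ratios of a pair together. Against TMM, RLE size factors shifted the ratios of the 3 pairs by -0.36, -0.18 and 0.12, and total counts shifted them by -0.32, -0.10 and -0.48. Gly and His stayed higher and Glu, Thr and Val stayed lower in all 3 pairs under RLE, total counts, total counts without Gly-GCC, each distinct sequence counted once, removal of 51-nt reads and correction for a base change described next. Lys and Cys turned mixed under RLE and total counts, Cys also under total counts without Gly-GCC and with each distinct sequence once, Gln under total counts and without 51-nt reads, Pro under total counts without Gly-GCC, and Asp without 51-nt reads and after the correction. No family passed the edgeR test without heterozygote heat shock, heterozygote recovery, mutant control or mutant heat shock (0, 6, 6 and 1 at an unadjusted p under 0.05), 3 passed without heterozygote control and 8 without mutant recovery.

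Bases read also differed between the genotypes. C was read at an A of the gene at read position 7 in 13.6% of mutant reads of 51 nt from the first base and 0.0962% of heterozygote reads, and at position 24 in 13.2% and 0.062%. Few short reads differed from the rebuilt genes, 2707 of 169476 at 30 to 35 nt, against 1811 of 7138 at 51 nt. A correction was made on the assumption that reads no longer than 35 nt needed an exact match to be listed. It used positions 7, 24 and 29, the last from only 8 of 122 mutant and 0 of 28 heterozygote reads of 51 nt. It added 25.1%, 25.3% and 23.7% to the mutant glutamate counts, 24.9%, 24.7% and 18.2% to histidine and 16.6%, 25.0% and 19.0% to aspartate. For valine it added 13.5%, 10.3% and 0%, and for glycine at most 0.045%. After correction 2 families passed the edgeR test, His higher and Val lower, and the ratio of Glu stood at -0.80, -0.45 and -0.16. The difference in bases read runs with genotype in all 3 pairs, and the share of these results that comes from it cannot be told apart beyond this correction.

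By isoacceptor, 7 of 23 with at least 300 reads were higher in the mutant of every pair (30.4%), namely Gly-GCC, Gly-TCC, Lys-CTT, Cys-GCA, His-GTG, Ser-AGA and the sequences common to Gln-CTG and Gln-TTG, and 4 were lower (17.4%), namely Glu-CTC, Asp-GTC, Val-CAC and Pro-TGG, of which Lys-CTT, Cys-GCA and Ser-AGA turned mixed under RLE and Asp-GTC after the correction. The intervals lay above 0 throughout for 4 of them (17.4%) and below 0 for 2 (8.7%). In edgeR 6 of 22 passed (27.3%), 3 higher (13.6%) and 3 lower (13.6%). Of the passing ones, the shared Gln sequences had 20, 28 and 39 reads in heterozygotes against 415, 129 and 16 in mutants and rose by 2.32 ± 0.32 (edgeR adjusted p = 1.12e-07). Only mutant libraries, where they are high, reached the count filter of the test for them, so this p is given as a description. Without 51-nt reads they were not tested. They are defined by being listed at genes of both, and the 51-nt one shown above holds the anticodon CTG. Gly-TCC, a minor glycine isoacceptor, had 73, 145 and 138 reads against 770, 418 and 60 and rose by 1.76 ± 0.28 (edgeR adjusted p = 1.43e-06). Without 51-nt reads Gly-TCC was at 0.58 ± 0.27 and did not pass (edgeR adjusted p = 0.172), with pair ratios of 0.35, 0.60 and 0.80, and its 5′ fragments, described with the ends, were not among those that passed either. Without either heat shock library 2 or 1 passed, and without mutant recovery 10 did.

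The Dnmt2 target list gave no common direction. Of its 3 members, Asp-GTC fell in the edgeR test, Gly-GCC had a log2 value of 0.68 and did not pass (adjusted p = 0.224 in edgeR), and Val-AAC was below the count filter. The Asp-GTC ratio was -1.43, -0.81 and -0.13, with an interval from -0.395 to 0.128 in recovery. Asp-GTC passed in 3 of 10 other settings with all libraries, and not under total counts or after the correction for C read at A. The median log2 value of the list, over the 2 tested, was -0.06, against 0.07 over the 22 isoacceptors tested. A list of the 4 tRNAs whose first anticodon base is exchanged for queuosine, a modified guanine, split as well. His-GTG rose, Asp-GTC fell, Asn-GTT was at 0.05, below 0 under RLE or total counts, and did not pass, and Tyr-GTA, with 127 reads, was not tested. Both lists were drawn up with results of these data known.

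Base 38 itself was read from the rebuilt genes. Among isoacceptors with at least 300 reads, 6 had a C there, and 3 of these were lower in all pairs (Glu-CTC, Asp-GTC and Val-CAC), 2 higher (Gly-GCC and His-GTG) and 1 mixed (Glu-TTC), against 17.4% lower and 30.4% higher over all 23. Under RLE 4 of the 6 were lower, Glu-TTC being added, and after the correction Asp-GTC was mixed. Of 11 with an A, 5 were higher in all pairs and 6 were mixed, but under RLE 2 were higher and 9 mixed, and under total counts 3 were higher, 7 mixed and Arg-CCT lower. Of 4 with a T, 1 was lower (Pro-TGG) and 3 were mixed, and under RLE all 4 were lower. The median log2 ratio was -0.60, -0.34 and -0.30 for C and 0.57, 0.16 and 0.16 for A. The correction for C read at A added reads in both groups, for instance 14.3%, 15.6% and 10.3% to mutant Cys-GCA, which has an A.

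Fragment ends were sorted next. Reads that begin with base 1 of the gene were called 5′ fragments, reads that reach the annotated end 3′ fragments, and all others internal. No rebuilt gene ran past its annotated length, so 3′ pieces that carry bases beyond the gene are not represented. The shares are therefore of the listed reads and not the balance of 5′ and 3′ pieces in the flies. The share of 5′ fragments was 90.6%, 87.2% and 87.1% in heterozygotes and 93.0%, 90.7% and 92.3% in mutants (95% Wilson interval 91.6% to 93.0% in mutant recovery). It was higher in 3 of 3 pairs, without overlap, by 3.69 percentage points on average (exact sign-flip permutation test, 2-sided, p = 0.25, the smallest that 3 pairs allow). The share of 3′ fragments was 5.76%, 9.14% and 6.95% in heterozygotes and 3.71%, 6.81% and 4.38% in mutants, a mean difference of -2.32 points that was negative in 3 of 3 pairs. For internal fragments it was -1.37 points, or -0.74 without the recovery pair, with Wilson intervals apart in 2 of 3 pairs. The same exact p of 0.25 holds for every share below that had 1 sign in 3 of 3 pairs. Of 21 end measures over all reads, 4 were higher (19.0%) and 3 lower (14.3%) in all pairs.

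Where 5′ fragments ended in the loop differed in the same direction in all pairs at bases 32 and 36, which held few of them. Those that ended at base 32, before the anticodon, made up 3.95%, 3.45% and 2.41% of heterozygote 5′ fragments and 4.78%, 5.61% and 4.70% of mutant ones. Those that ended at base 36, the last of the anticodon, made up 3.65%, 2.72% and 4.99% against 2.02%, 1.63% and 1.06%. Neither measure overlapped between the genotypes, and the Wilson intervals were apart in 3 of 3 pairs. Gly-GCC alone gave 386 of 547, 1032 of 1386 and 300 of 597 of the ends at base 32 in heterozygotes. In mutants it gave 2144 of 2990, 1602 of 1900 and 187 of 221. The shares without Gly-GCC were not analysed. Ends at base 33, the most frequent, were mixed, with differences of -0.82, 5.39 and 12.7 points, as was the total share of ends at bases 32 to 38.

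Gly-GCC, the most abundant isoacceptor and a Dnmt2 target, was then taken alone. Its 5′ fragments ended at base 33, just before the anticodon, in 52.5%, 53.4% and 46.3% of heterozygote cases and 59.5%, 57.8% and 62.1% of mutant cases (95% Wilson interval 60.2% to 63.9% in mutant recovery). Ends at base 34 made up 29.3%, 29.2% and 25.3% against 20.1%, 23.1% and 18.0%, and ends at base 36 made up 4.21%, 3.12% and 8.53% against 2.43%, 1.53% and 0.73%. The genotypes did not overlap at any of these 3 positions, and the Wilson intervals were apart in 3 of 3 pairs. Ends at base 32 were higher in each pair with overlapping genotypes, and ends at base 35 were mixed. The mean difference was 9.10 points at base 33, -7.53 at base 34 and -3.72 at base 36. The signs held under each counting alternative and without each pair, with 5.74 to 11.4 points for base 33 when 1 pair was left out, the lowest without recovery. At base 36 the difference was -1.69 points without recovery. For this isoacceptor the correction for C read at A left all 3 differences unchanged to 2 decimals.

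The 3′ fragments of Gly-GCC lie on the other side of the loop. They made up 4.62%, 14.4% and 7.15% of Gly-GCC reads in heterozygotes and 3.55%, 9.20% and 3.49% in mutants, lower in each pair. Among them, starts at base 34 took 8.66%, 3.95% and 12.6% in heterozygotes and 18.8%, 6.06% and 15.8% in mutants, with Wilson intervals apart in 2 of 3 pairs. The genotypes overlapped in both measures, and heat shock stood apart from the other conditions in each genotype.

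**Figure D2:**
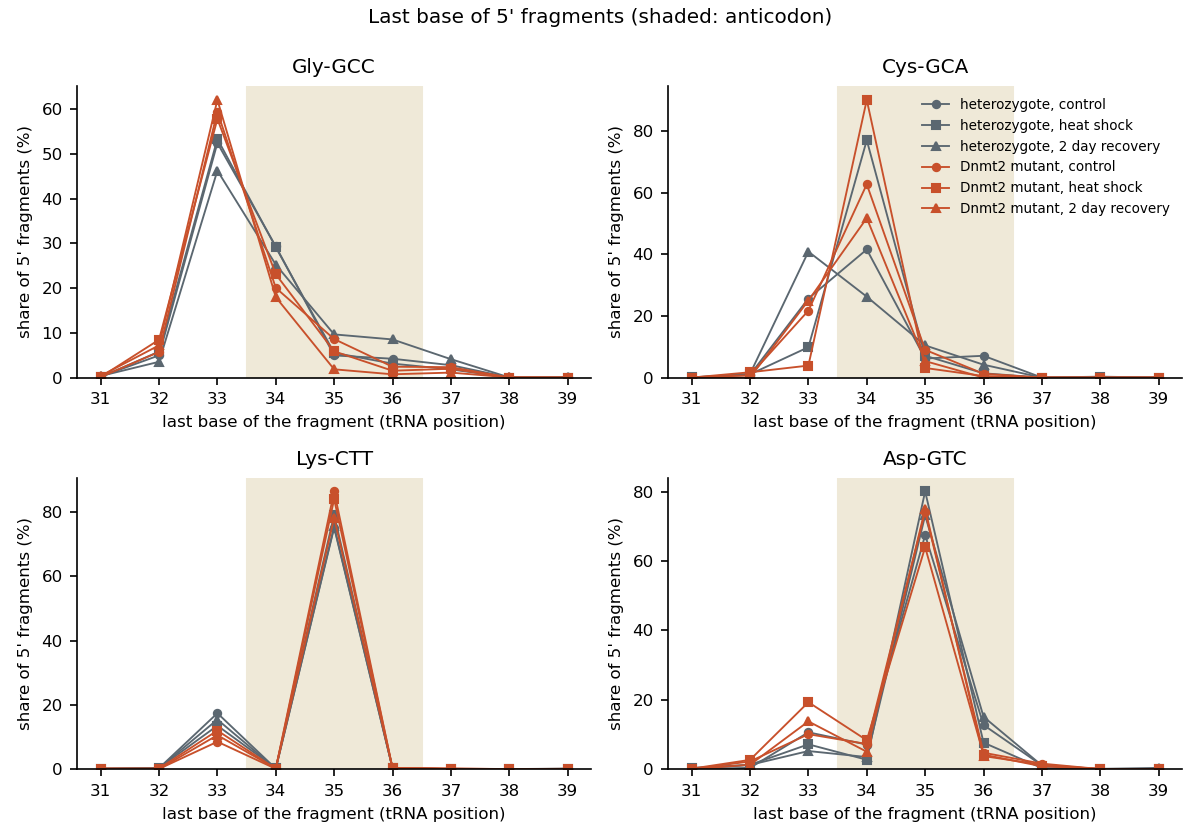
Share of 5′ fragments (y axis, %) by the tRNA position of their last base (x axis; the anticodon is shaded) for 4 isoacceptors, with 1 line for each library, grey for heterozygotes and orange for Dnmt2 mutants. In Gly-GCC the mutants lie above the heterozygotes at base 33 and below them at bases 34 and 36, in Lys-CTT they lie below at base 33, and in Asp-GTC below at base 36.

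Other isoacceptors had shifts of their own, in different directions along the loop. Lys-CTT, whose fragments end mainly at base 35 inside the anticodon, had 75.2%, 79.1% and 75.5% of 5′ fragments there in heterozygotes and 86.4%, 84.0% and 78.2% in mutants. Its share at base 33 was 17.4%, 13.5% and 15.4% against 8.51%, 12.0% and 10.6%, without overlap. Here the mutants had the longer fragments, unlike in Gly-GCC. Both shares differed in 1 direction in 3 of 3 pairs, with Wilson intervals apart in 2.

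Cys-GCA fragments ended at base 34, the first anticodon base, in 41.6%, 77.1% and 26.3% of heterozygote 5′ fragments and 62.8%, 90.2% and 51.8% of mutant ones. The rise of 19.9 points on average was seen in each pair with Wilson intervals apart, although the range of the 3 conditions overlapped. In Asp-GTC the ends at base 36, which give the 36-nt fragment shown above, took 12.7%, 7.62% and 15.1% in heterozygotes and 4.72%, 4.16% and 3.75% in mutants. These groups did not overlap, and the interval for mutant recovery ran from 1.28% to 10.5%. Gln-CTG ends at base 36 were at 53.9%, 50.9% and 57.3% against 45.9%, 40.6% and 43.5%, with overlapping Wilson intervals in every pair.

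Tested as levels, 6 of 24 combinations of isoacceptor and end class passed in edgeR (25.0%), 3 higher (12.5%) and 3 lower (12.5%). Among 31 combinations with at least 300 reads, 10 were higher (32.3%) and 8 lower (25.8%) in every pair, 5 (16.1%) and 3 (9.68%) with intervals on that side of 0. The 5′ fragments of Gly-TCC rose by 2.43 ± 0.31 (adjusted p = 8.53e-09 in edgeR), those of His-GTG by 1.04 ± 0.28 (0.00468) and internal Gly-GCC fragments by 0.83 ± 0.29 (0.0285). The last and the 3′ fragments of Asp-GTC did not pass after the correction for C read at A. Internal Glu-CTC fragments fell by 1.34 ± 0.30 (0.000663 in edgeR), 3′ fragments of Asp-GTC by 0.99 ± 0.30 (0.00811) and 5′ fragments of Val-CAC by 0.94 ± 0.27 (0.0065). The 3′ reads of Asp-GTC were 139, 354 and 363 for heterozygotes against 133, 157 and 39 for mutants, from libraries of unequal depth. Without mutant recovery none of 44 combinations passed in edgeR, 15 had an unadjusted p under 0.05, without heterozygote control 3 passed, and without either heat shock library only Gly-TCC passed.

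The length of the reads followed the ends. Reads of 30 to 32 nt made up 32.4%, 25.5% and 19.2% of heterozygote reads and 39.0%, 35.7% and 37.8% of mutant reads, a difference of 11.8 points on average without overlap. Gly-GCC gave 4511 of 4965, 10603 of 11750 and 4304 of 5487 of these reads in heterozygotes. In mutants it gave 24563 of 26322, 12664 of 13373 and 1816 of 1931. The class was not analysed without Gly-GCC. Reads of 33 to 35 nt made up 53.2%, 56.3% and 61.3% against 49.5%, 49.3% and 44.4%, a mean difference of -9.22 points, or -5.38 without the recovery pair. For reads of 36 to 50 nt the mean difference was -3.13 points and negative in each pair. The share of 51-nt reads was mixed. Among 22 single lengths, 3 had a higher share (13.6%) and 8 a lower one (36.4%) in every pair. The share of 32-nt reads, most of which were Gly-GCC reads, differed by 10.5 points on average.

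**Figure D3:**
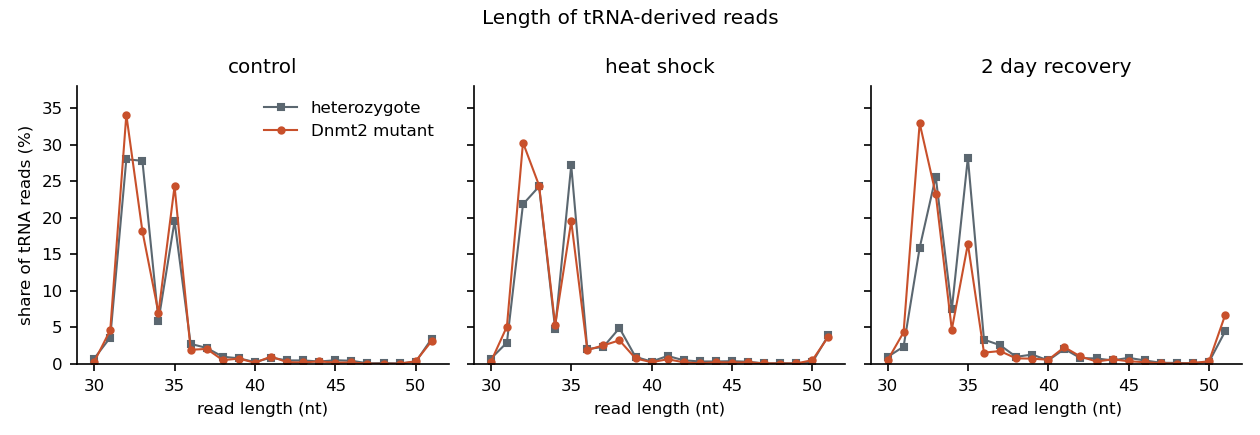
Share of tRNA reads (y axis, %) by read length (x axis, nt) in each condition, with heterozygotes in grey and Dnmt2 mutants in orange, 1 library per line. The mutant line is higher at 32 nt in each panel, at 34.1%, 30.3% and 32.9% against 28.0%, 21.8% and 15.9%.

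Within Gly-GCC the 32-nt fragment, which ends at base 33, went from 49.6%, 45.3% and 42.3% of reads in heterozygotes to 56.7%, 51.8% and 59.2% in mutants. The 33-nt fragment was at 27.7%, 24.7% and 23.1% against 19.2%, 20.7% and 17.2%. Neither overlapped between genotypes. Cys-GCA gave the opposite picture, with a 33-nt share of 40.9%, 76.3% and 25.9% in heterozygotes and 60.8% and 89.9% in mutant control and heat shock, and 29 of 58 reads in mutant recovery. Short reads of Gly-GCC were hardly changed by the correction for C read at A, while the difference of the 30 to 32 nt class over all reads went from 11.8 to 9.86 points.

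Combinations of isoacceptor and length that passed in edgeR numbered 7 of 43 (16.3%), 3 higher (6.98%) and 4 lower (9.3%). Of 44 with at least 300 reads, 11 were higher (25.0%) and 13 lower (29.5%) in every pair, 7 (15.9%) and 6 (13.6%) with intervals on that side of 0. The 3 that passed higher were all of 51 nt. The 51-nt reads of Gly-TCC were 26, 59 and 36 for heterozygotes against 574, 325 and 41 for mutants, with log2 ratios of 2.60, 2.81 and 3.06 and 2.88 ± 0.37 over the pairs (edgeR adjusted p = 0.0065). Reads of 51 nt listed at both Gln-CTG and Gln-TTG genes numbered 8, 16 and 17 against 331, 107 and 10 and rose by 2.98 ± 0.35 (edgeR adjusted p = 0.0065). Those listed at Gln-CTG genes only rose by 1.72 ± 0.28 (edgeR adjusted p = 0.0132). All 3 reached the count filter of the test in mutant libraries only, where they are high, so these p-values are given as a description. No read was longer than 51 nt, so reads of 51 nt are reads of at least that length.

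The lower combinations were Val-CAC at 33 nt, at -1.18 ± 0.28, and Glu-CTC at 30, 34 and 36 nt, at -3.55 ± 0.66, -1.22 ± 0.26 and -1.14 ± 0.22 (edgeR adjusted p between 0.0205 and 0.0372). The 30-nt reads of Glu-CTC were 57, 223 and 123 for heterozygotes against 11, 7 and 6 for mutants. For these and for Val-CAC at 33 nt only heterozygote libraries, where they are high, reached the count filter of the test. None of the 4 lower combinations passed after the correction for C read at A, whereas the 51-nt class of both Gly-TCC and the shared Gln sequences did. Without heterozygote control or mutant heat shock none of 36 and 40 combinations passed in edgeR (6 and 4 at an unadjusted p under 0.05), without heterozygote heat shock or mutant control 2 passed, and without mutant recovery 14 passed.

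The gain in long reads belonged to a few isoacceptors. Reads of 50 or 51 nt, a class chosen after the values were seen, made up 37.0%, 42.1% and 26.8% of Gly-TCC reads in heterozygotes and 75.7%, 78.7% and 68.3% in mutants. In His-GTG they were at 22.9%, 5.92% and 4.17% against 35.5%, 32.5% and 31.8%, and reads of exactly 50 nt numbered 1, 6 and 1 against 68, 69 and 4. In Gln-CTG they were at 15.3%, 14.4% and 6.62% against 26.1%, 31.9% and 22.9%. The genotypes did not overlap in these 3 isoacceptors. These shares are without the correction for C read at A, which adds reads of up to 35 nt only. It added 24.9%, 24.7% and 18.2% to the mutant His-GTG counts, which would lower the share of long reads there. To mutant Gly-TCC and Gln-CTG it added at most 2.75%. Of 23 isoacceptors, 6 had a higher share of such reads in all pairs, 2 a lower one and 15 were mixed. The 2 lower ones were the glutamate isoacceptors Glu-CTC, at 13.7%, 11.7% and 12.5% against 11.1%, 11.2% and 7.27%, and Glu-TTC.

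**Figure D4:**
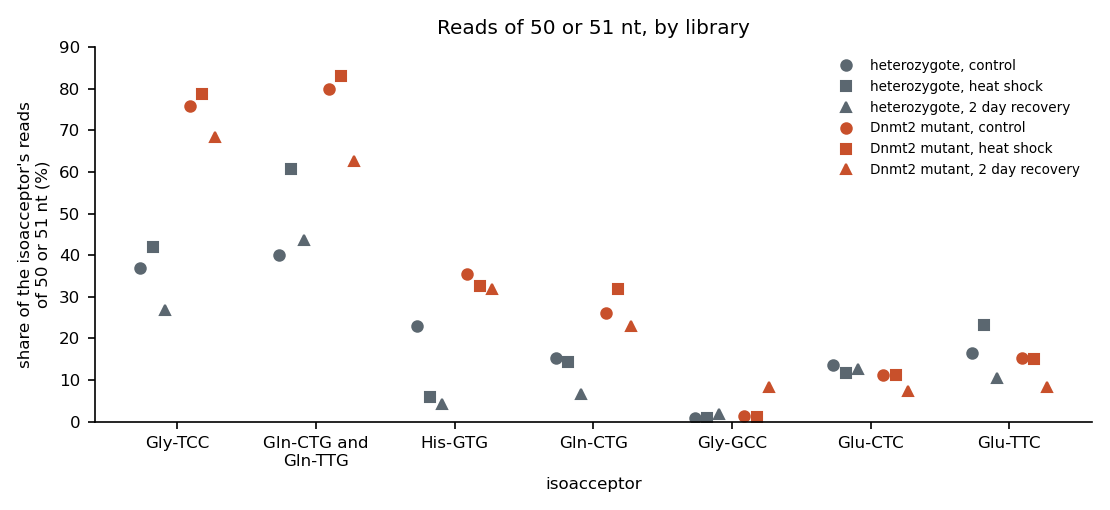
Share of reads of 50 or 51 nt (y axis, %) in 7 isoacceptors (x axis), with 1 point for each library, grey for heterozygotes and orange for Dnmt2 mutants. In Gly-TCC the mutants sit between 68.3% and 78.7% and the heterozygotes between 26.8% and 42.1%, while in Glu-CTC the mutants sit lower.

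Of single fragments, 6 of 39 passed in edgeR (15.4%), 2 higher (5.13%) and 4 lower (10.3%). Of 41 with at least 300 reads, every pair showed 8 higher (19.5%) and 13 lower (31.7%), 5 (12.2%) and 8 (19.5%) with intervals on that side of 0. The 51-nt start of Gly-TCC shown above had 24, 46 and 28 heterozygote reads against 400, 227 and 27 mutant reads and rose by 2.61 ± 0.43 (edgeR adjusted p = 0.00711). The 36-nt Asp-GTC fragment had 36, 156 and 87 reads against 15, 36 and 3 and fell by 2.24 ± 0.39 (edgeR adjusted p = 0.00711). The Gly-TCC fragment reached the count filter of the test in mutant libraries only, and this one in heterozygote libraries only, each where it is high. The 35-nt neighbour of the Asp-GTC fragment, which lacks the last anticodon base, had ratios of -1.50, -1.16 and 0.14 and did not pass (edgeR adjusted p = 0.224). The remaining 2 that fell were Glu-CTC fragments of 30 and 51 nt, listed at genes of several arms that include 2R. The 30-nt one reached the count filter in heterozygote libraries only, where it is high. A fragment is 1 exact sequence, so mutant reads with C at an A counted as other sequences. The correction adds no reads above 35 nt, so the 36-nt Asp-GTC and 51-nt Glu-CTC fragments were not corrected. All 51-nt reads of Glu-CTC together did not pass (edgeR adjusted p = 0.0787). Without either heat shock library none of 36 and 37 fragments passed in edgeR (7 and 9 at an unadjusted p under 0.05), without heterozygote control 2 passed, without mutant control 3 and without mutant recovery 10.

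Fragments of Cys-GCA and Val-CAC came in 2 variants each, and variant was not tested against variant. The 2 Cys-GCA variants of 33 nt differ by A5G and T16G, counted from the first base, with the more abundant variant written first. The second variant rose by 1.76 ± 0.42 (edgeR adjusted p = 0.0238), and the first stood at -0.11, 1.09 and 0.68 and did not pass (edgeR adjusted p = 0.401). The second variant made up 39.1%, 12.4% and 23.9% of both in heterozygotes and 63.6% and 17.6% in mutant control and heat shock, with 14 reads of each variant in mutant recovery. In Val-CAC, whose variants differ by C5T and C16T, the first fell by 1.55 ± 0.29 (edgeR adjusted p = 0.00906) and the second stood at -0.16, -1.05 and -0.75 and was below the count filter. The first reached that filter in heterozygote libraries only, where it is high. The second made up 32.7%, 36.7% and 36.6% of both in heterozygotes and 58.2% and 41.5% in mutant control and heat shock, with 3 reads of each in mutant recovery. Each second variant is listed at 1 gene and the first at 4 genes in Cys-GCA and 6 in Val-CAC, and gene content of the 2 fly stocks was not analysed here.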

How the data were processed

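The authors deposited raw counts, whole numbers for each read sequence at each tRNA gene it matches, per the file headers. Bowtie and build dm3 are named in the submitters' processing notes; their versions and mismatch settings are not stated there. Of 297 listed genes, 285 matched the RefSeq table of another build, which was used for names and lengths only.

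A read is listed at every gene copy it matches, in shortened form at copies that differ near its end. Each read was counted once by taking such repeats off. The plan made before the files were opened had each distinct sequence once as the main count and this one as its alternative; they were exchanged before any test was run, after the repeats were seen. Members and lists were chosen with earlier results of these data known.

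Reads were summed per isoacceptor, family, end class, length and sequence. Features that reached, in 3 libraries, the CPM equal to 10 counts in the smallest library entered the test of edgeR 4.0.16 under R 4.3.3 (glmQLFTest, TMM, Benjamini-Hochberg, 2-sided), with genotype and condition as terms and 2 residual degrees of freedom. The spread was pooled over features, so p-values measure the spread between these libraries, which may be technical. Pair ratios used a prior count of 2. Intervals cover counting error only, since reads carry no molecular identifiers. Shares were compared by an exact sign-flip test. Counting, tests and intervals were tested on simulated data. Alternatives were RLE size factors, total counts with and without Gly-GCC, DESeq2 1.42.0 (with its own size factors), no filter, no condition term, other countings, no 51-nt reads, correction for C read at A, and each library or pair left out. With 1 library left out, the condition term fitted its partner exactly, so the genotype value came from the other pairs. Families, isoacceptors, end classes, lengths and fragments that passed or kept 1 sign were named, with the 5 most abundant isoacceptors and both lists.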

Additional observations from a re-analysis of the deposited data

Results flagged for a closer look

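Lys-TTT, a lysine isoacceptor, had pair intervals on opposite sides of 0 in different conditions. Its log2 ratio of mutant over heterozygote was -0.21 for control flies, 0.31 after heat shock and 0.96 after 2 days of recovery, from 1 pair each. The difference between conditions was not tested, since each condition had 1 library per genotype.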

How the results depend on the processing

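The model paired the libraries by condition, and the labels number no replicates, so no other pairing was fitted. Counts of calls moved with the settings. Isoacceptors (6 called) fell to 2 without the condition term and 2 without 51-nt reads. Families (7) fell to 3 with total counts without Gly-GCC, 0 without the condition term (3 at an unadjusted p under 0.05 in edgeR), and 2 when summed over genes, without 51-nt reads or after correction for C read at A. End classes (6) fell to 1 without the condition term and 3 with ends taken within 2 bases. Lengths (7) became 4 with total counts without Gly-GCC, without the condition term, with each distinct sequence once and when summed over genes, 11 with DESeq2, 0 without 51-nt reads (8 at an unadjusted p under 0.05 in edgeR) and 2 after correction. Fragments (6) became 11 with total counts, 2 with total counts without Gly-GCC, 23 without a filter and 2 without the condition term. Families of 1 sign, 5 higher and 5 lower, became 3 and 9 with RLE and 2 and 9 with total counts, and the lower ones 8 with each distinct sequence once and 3 when summed over genes. Isoacceptors of 1 sign, 7 higher and 4 lower, became 4 and 10 with RLE, and the lower ones 9 with total counts, 7 after correction and 7 with a minimum of 100 reads.

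Leaving out 1 library or pair gave 1 to 10 isoacceptors, 0 to 8 families, 0 to 9 end classes, 0 to 14 lengths and 0 to 10 fragments. Where that left 1 library of a condition, the condition term fitted it exactly, so it added no comparison of the genotypes. Such fits rest on the other pairs, with scaling and the count filter taken over the libraries left. Leaving out a pair gave 5 to 7 families higher and 5 to 9 lower, and 7 to 10 isoacceptors higher and 5 to 9 lower. The difference in 51-nt share, 0.57 points, ran from -0.26 to 1.01 without 1 pair and was -0.90 when summed over genes. Asn-GTT turned to -0.13 with RLE, -0.25 with total counts, -0.13 with DESeq2 and -0.048 after correction, and ran from -0.087 to 0.45 in fits that left out 1 library or pair. Lys-CTT ran from -0.13 to 0.96 and Lys-TTT from -0.15 to 0.55 in such fits. All other share differences tested kept their direction. Mutant recovery, with 5113 reads, limits every pair it enters. The cause of these changes was not tested.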
